A study of Mus musculus with 18 samples.

Results

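Fatty acid oxidation and ketone body metabolism were described through 39 genes, chosen by name from a table of 56748 genes and read in all 18 libraries of mouse colon organoids, that is, of colon epithelium kept in culture. Each of the 39 names matched 1 gene, and the list was made with earlier results of these data known. Bulk RNA sequencing was run on proximal, mid and distal colon organoids in a differentiation medium or in a control medium of ENR (EGF, Noggin and R-spondin) with Wnt3a-conditioned medium, in which organoids proliferate, both 3 days after passaging. The 6 groups, each with 3 libraries, were proximal, mid and distal differentiation organoids and proximal, mid and distal control organoids. Neither a mouse strain nor a genotype, and neither the number of animals nor of organoid lines behind a group, is given in the sources used here, so p-values measure only the spread between these libraries.

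Long-chain fatty acids are activated to acyl-CoA, moved into mitochondria by the carnitine shuttle and shortened by repeated dehydrogenation, hydration, a second dehydrogenation and thiolysis, while electrons pass through the electron transfer flavoprotein to the respiratory chain. Peroxisomes shorten very-long-chain and branched fatty acids by a parallel set of enzymes. Ketone bodies are made from acetyl-CoA, and other tissues turn them back into acetyl-CoA. In the colon, differentiated colonocytes are known to oxidise fatty acids, including butyrate made by bacteria, and the nuclear receptor PPARα is a known activator of many of these genes.

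Expression is given as FPKM, which scales fragments for gene length and library size, and differences as log2 fold changes of FPKM + 1 with the standard error (SE) of the fit, so that changes of genes with low values are understated. A gene was called where the limma test gave an adjusted p under 0.05 over the 12896 genes that passed a filter on low values (3 or more libraries with FPKM of 1 or higher). Of the 39 members, 38 passed. The exception was Pdk4, a pyruvate dehydrogenase kinase and a known PPAR target, which had 0 to 8 reads per library and at most 0.182 FPKM.

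Recovered depth was 12827751 to 19938198 reads per library. The summed FPKM of the 6 colonocyte markers ranged from 13960 to 24570 in differentiation libraries and from 293.8 to 2157 in control libraries, and that of the 4 stem cell markers from 0.132 to 3.95 in differentiation libraries and from 26.1 to 37.8 in control libraries. The 5 goblet cell markers summed to between 971.9 and 3269 FPKM in differentiation and between 39.3 and 328.7 FPKM in control libraries. The 4 enteroendocrine markers summed to between 11.9 and 111.4 FPKM in differentiation and between 0.869 and 26.6 FPKM in control libraries. The 4 markers of small intestine and liver, tissues known to be rich in these pathways, summed to between 3.54 and 47.2 FPKM in differentiation and between 0 and 0.886 FPKM in control libraries. None of the 12 fibroblast, immune, endothelial, adipocyte and muscle markers exceeded 0.663 FPKM in any library, and Col1a2 of fibroblasts and Plin1 of adipocytes were listed at 0 in all 18. Libraries of the same group also differed from one another. In proximal control replicate 1 the colonocyte markers summed to 1263 FPKM, against 444.6 and 293.8 FPKM in the other 2 proximal control libraries. In distal differentiation replicate 3 the stem cell markers summed to 1.38 FPKM, against 0.153 and 0.132 FPKM in the other 2 distal differentiation libraries. In proximal differentiation replicate 1 the 6 cycling cell markers summed to 69.6 FPKM, against 5.27 and 9.21 FPKM in the other 2 proximal differentiation libraries and 40.0 to 103.5 FPKM in proximal control. For 25 of the 39 members this library lay between the other 2 differentiation libraries and all 3 control libraries of its region. Mitochondrial genes took 2.46% to 5.57% of reads in differentiation and 2.01% to 2.99% in control libraries. The part of these marker levels and these shares in the results below was not tested, while fits without proximal differentiation replicate 1 are given below. In bulk samples fewer cells of a type and less RNA per cell cannot be told apart.

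Most members were higher in differentiation medium in all 3 regions. In proximal organoids 31 of the 38 tested members were higher and 1 was lower in differentiation medium, while 27.6% of all tested genes were higher and 26.2% lower. In mid organoids 28 members were higher and 2 lower (31.5% and 32.0% of all tested genes), and in distal organoids 30 were higher and 2 lower (31.6% and 31.3%). The median log2 fold change over the members was 0.82 in proximal, 0.76 in mid and 0.84 in distal organoids, beside medians of -0.015, 0.00 and 0.003 over all tested genes. The same 26 members were higher in all 3 regions. Only Acsl5 and Acot1 were lower in 2 regions, mid and distal, and Plin2 was lower in proximal but higher in mid and distal organoids. The summed level of all members was 1219 to 1406 FPKM in proximal differentiation organoids against 661.9 to 730.8 FPKM in proximal control organoids. It was 1435 to 1542 FPKM in mid differentiation against 725.9 to 795.2 FPKM in mid control organoids, and 1259 to 1591 FPKM in distal differentiation against 693.4 to 775.9 FPKM in distal control organoids, so the media did not overlap in any region.

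The split depended on how libraries are scaled. Rescaled to total reads, with the median of all genes shifted to -0.262 in proximal, -0.336 in mid and -0.349 in distal organoids, proximal organoids had 24 higher and 4 lower members, mid organoids 21 and 5, and distal organoids 18 and 4. Of all genes, 18.3%, 18.8% and 18.2% were then higher and 40.6%, 47.0% and 47.8% lower. The calls lost under this scaling were 7 in proximal organoids (Slc22a5, Eci2, Decr1, Hsd17b4, Crot, Bdh1 and Angptl4), 7 in mid organoids (Hadha, Eci2, Etfa, Etfb, Hsd17b4, Crot and Plin2) and 12 in distal organoids, and 12 values over the 3 regions changed sign. Without proximal differentiation replicate 1, 30 members were higher and 2 lower in proximal organoids.

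**Figure D1:**
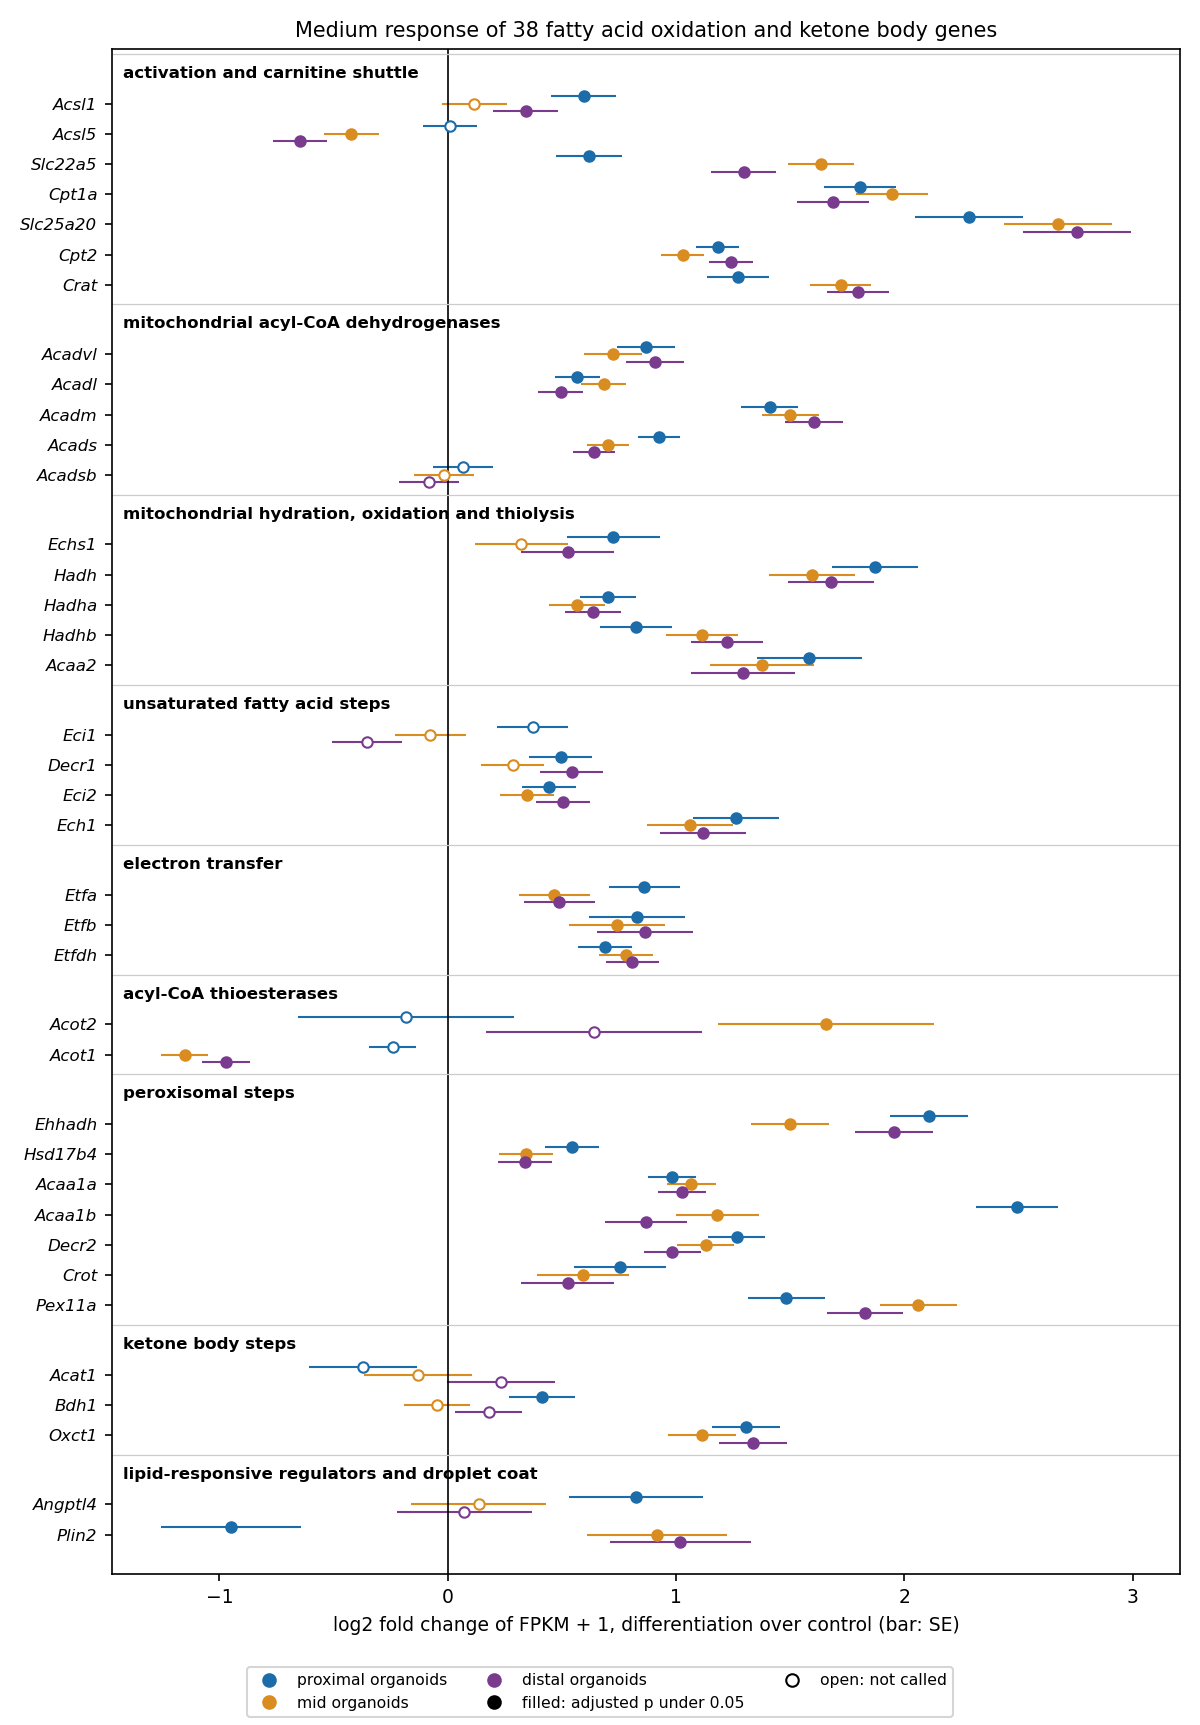
Log2 fold change of FPKM + 1, differentiation over control medium, of the 38 tested members by step (rows) in proximal, mid and distal organoids (colours, 3 libraries per group, bars show the SE). Filled points passed an adjusted p of 0.05. Most points lie right of 0 in all 3 colours, and Plin2 lies left of 0 in proximal organoids alone.

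Slc25a20 and Cpt1a, both of the carnitine shuttle, were the 2 members whose smallest fold change over the 3 regions was largest. Cpt1a, which makes acylcarnitine at the outer mitochondrial membrane and sets the pace of entry, stood at 35.3, 45.9 and 49.4 FPKM in proximal differentiation organoids, against 14.2, 11.04 and 9.96 FPKM in proximal control organoids. It had 65.3, 67.8 and 58.6 FPKM in mid differentiation organoids, against 17.3, 14.8 and 15.4 FPKM in mid control organoids, and 40.8, 61.6 and 50.3 FPKM in distal differentiation organoids, against 14.5, 15.96 and 14.3 FPKM in distal control organoids. The media did not overlap in any region, and the log2 fold changes were 1.804 ± 0.16 in proximal, 1.95 ± 0.16 in mid and 1.69 ± 0.16 in distal organoids (SE, adjusted p at most 5.77e-07). Slc25a20, the carrier that exchanges acylcarnitine for carnitine across the inner membrane, reached 30.8, 45.5 and 41.6 FPKM in proximal differentiation organoids, against 10.9, 6.44 and 5.21 FPKM in proximal control organoids. Its levels were 74.5, 67.4 and 86.95 FPKM in mid differentiation organoids, against 12.4, 10.6 and 10.4 FPKM in mid control organoids, and 105, 66.4 and 65.7 FPKM in distal differentiation organoids, against 9.45, 13.5 and 9.18 FPKM in distal control organoids. Every differentiation library exceeded every control library of its region, by 2.28 ± 0.24 in proximal, 2.67 ± 0.24 in mid and 2.76 ± 0.24 in distal organoids on the log2 scale (SE, adjusted p at most 2.68e-06).

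Cpt2, which returns the acyl group to CoA inside the mitochondrion, was measured at 45.1, 46.9 and 48.1 FPKM in proximal differentiation organoids, against 23.4, 18.5 and 18.5 FPKM in proximal control organoids. The mid and distal organoids gave 55.03, 51.2 and 54.3 FPKM in mid differentiation organoids, against 25.9, 26.7 and 24.5 FPKM in mid control organoids, and 59.9, 56.1 and 51.05 FPKM in distal differentiation organoids, against 22.9, 22.5 and 23.5 FPKM in distal control organoids. Its increase was of like size in the 3 regions, 1.18 ± 0.10 in proximal, 1.03 ± 0.10 in mid and 1.24 ± 0.10 in distal organoids. Crat, the carnitine acetyltransferase, had 11.98, 17.4 and 16.4 FPKM in proximal differentiation organoids, against 5.69, 5.52 and 5.81 FPKM in proximal control organoids. In the other regions it had 21.7, 22.4 and 21.3 FPKM in mid differentiation organoids, against 5.64, 6.23 and 5.92 FPKM in mid control organoids, and 25.9, 25.6 and 19.2 FPKM in distal differentiation organoids, against 5.12, 6.63 and 6.41 FPKM in distal control organoids. No library of one medium reached the other, with log2 fold changes of 1.27 ± 0.14 in proximal, 1.72 ± 0.14 in mid and 1.796 ± 0.14 in distal organoids (SE, adjusted p at most 3.52e-06 for Crat and at most 4.49e-07 for Cpt2).

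The region upstream of Cpt1a is shown because Cpt1a is the entry step and because it holds 1 of the 5 AGGTCA hexamers found among the members. AGGTCA is a hexamer that nuclear receptors of the PPAR, RXR and HNF4 families are known to bind in pairs. The 250 bases before the start site of Cpt1a (chr19:3323051-3323300 on the GRCm38.p6 build, plus strand, from RefSeq) are in lower case with the hexamer in capitals, here read on the opposite strand as TGACCT, from base -94 to base -89.
Cpt1a promoter: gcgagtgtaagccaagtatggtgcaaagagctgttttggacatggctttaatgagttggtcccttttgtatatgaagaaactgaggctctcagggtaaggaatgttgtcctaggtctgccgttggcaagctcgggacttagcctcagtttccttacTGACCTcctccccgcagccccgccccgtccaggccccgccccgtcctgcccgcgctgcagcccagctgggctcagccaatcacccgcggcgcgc
Of the 39 members, 33 matched RefSeq promoters with 35 windows. The hexamer, searched on both strands, stood in 5 of the 35, upstream of Acadm, Plin2, Echs1, Acadvl and Cpt1a, and in 14.0% of all 32851 promoters. Its share among the members thus lay near that among all promoters. A pair of other patterns was in none of the 35. A pair of AGGTCA in the same direction with 1 base between them was in 0.0335% of all promoters, and TCAAGGTCA was in 0.387%. A match describes the letters and no factor's binding.

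The 3 other members of the activation and shuttle step went apart from one another. Slc22a5, the carnitine importer OCTN2 of the plasma membrane, had 12.7, 16.2 and 17.1 FPKM in proximal differentiation organoids, against 9.01, 10.1 and 9.59 FPKM in proximal control organoids. It had 20.9, 21.1 and 24.1 FPKM in mid differentiation organoids, against 6.85, 5.86 and 6.57 FPKM in mid control organoids, and 17.04, 18.9 and 18.1 FPKM in distal differentiation organoids, against 8.77, 5.18 and 6.67 FPKM in distal control organoids. Differentiation libraries were the higher ones throughout, by 0.62 ± 0.14 in proximal, 1.63 ± 0.14 in mid and 1.296 ± 0.14 in distal organoids (SE, adjusted p at most 0.00212). The acyl-CoA synthetases join fatty acids to CoA. Acsl5, the more abundant of the pair in every library, had 57.7, 55.98 and 53.5 FPKM in proximal differentiation organoids, against 54.6, 56.1 and 55.3 FPKM in proximal control organoids, which overlapped. It had 32.1, 31.4 and 32.3 FPKM in mid differentiation organoids, against 42.2, 45.3 and 42.1 FPKM in mid control organoids, and 33.5, 23.4 and 31.1 FPKM in distal differentiation organoids, against 53.1, 45.3 and 40.3 FPKM in distal control organoids, so that the differentiation libraries were the lower ones in mid and distal organoids. The log2 fold changes of Acsl5 were 0.01 ± 0.12 in proximal, -0.42 ± 0.12 in mid and -0.65 ± 0.12 in distal organoids, with adjusted p-values of 0.96, 0.00615 and 0.000257. Rescaled to total reads, the proximal value of Slc22a5 was 0.32 (adjusted p = 0.0602), and Acsl5 was also lower in proximal differentiation organoids (-0.31, adjusted p = 0.0462). Acsl1 lay between 1.13 and 3.40 FPKM in all 18 libraries, and was higher in differentiation medium in proximal (0.595 ± 0.14 SE, adjusted p = 0.00269) and distal organoids (0.34 ± 0.14 SE, adjusted p = 0.0482). The call in distal organoids was lost (adjusted p = 0.0619) with the replicate number as a block over all 18 libraries, which is no paired test. It was also lost rescaled to total reads (0.942), with a pseudocount of 0.1 (0.0599) and with no filter (0.0972). Fits that left out 1 library lost it in 5 of 6 cases (0.0657 to 0.142), all but the one without distal differentiation replicate 2.

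Among the mitochondrial acyl-CoA dehydrogenases, which take the first electrons from acyl-CoA of each chain length, 4 of 5 were higher in differentiation medium in each region. When scaled by total reads, 2 of 5 passed in distal organoids, without Acadl (0.042, adjusted p = 0.639) and Acads (0.19, adjusted p = 0.0777). Acadm, the medium-chain enzyme, had 38.4, 47.3 and 49.4 FPKM in proximal differentiation organoids, against 14.97, 15.8 and 18.1 FPKM in proximal control organoids. Its other levels were 56.9, 52.3 and 49.05 FPKM in mid differentiation organoids, against 18.4, 18.3 and 17.3 FPKM in mid control organoids, and 55.3, 62.8 and 44.3 FPKM in distal differentiation organoids, against 16.8, 17.9 and 16.2 FPKM in distal control organoids. The media were apart in every region by 1.41 ± 0.12 in proximal, 1.499 ± 0.12 in mid and 1.604 ± 0.12 in distal organoids (SE, adjusted p at most 6.2e-07). Acadl, the long-chain enzyme and the most abundant of the 5, averaged 82.2 ± 10.1 FPKM in proximal differentiation and 54.8 ± 1.16 FPKM in proximal control organoids (SD, n = 3), with a log2 fold change of 0.57 ± 0.10 (SE, adjusted p = 0.000219). Acadvl and Acads, for very long and short chains, had log2 fold changes between 0.64 and 0.92 over the 3 regions. Acadsb, whose known substrates are short branched acyl-CoA from isoleucine, stayed within 3.52 to 5.38 FPKM in all libraries, and its log2 fold changes of 0.07 ± 0.13 in proximal, -0.02 ± 0.13 in mid and -0.08 ± 0.13 in distal organoids did not pass the test.

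Hydration, the second dehydrogenation and thiolysis gave 5 of 5 higher members in proximal and distal and 4 of 5 in mid organoids. When scaled by total reads, 3 of 5 passed in mid and also in distal organoids. Hadh, the 3-hydroxyacyl-CoA dehydrogenase of medium and short chains, had 47.3, 61.2 and 58.1 FPKM in proximal differentiation organoids, against 18.3, 12.7 and 12.7 FPKM in proximal control organoids. In mid and distal organoids it had 77.3, 71.5 and 57.7 FPKM in mid differentiation organoids, against 24.6, 23.1 and 18.7 FPKM in mid control organoids, and 65.01, 73.6 and 50.4 FPKM in distal differentiation organoids, against 20.2, 22.04 and 14.8 FPKM in distal control organoids. Its levels did not overlap between media, with log2 fold changes of 1.87 ± 0.19 in proximal, 1.59 ± 0.19 in mid and 1.68 ± 0.19 in distal organoids (SE, adjusted p at most 4.71e-06). Acaa2, the mitochondrial thiolase, was the most abundant member in proximal differentiation organoids. It was measured at 132, 156 and 154 FPKM in proximal differentiation organoids, against 61.3, 46.3 and 39.8 FPKM in proximal control organoids. The mid and distal levels were 119, 112 and 106 FPKM in mid differentiation organoids, against 48.5, 43.1 and 36.6 FPKM in mid control organoids, and 127, 116 and 80.6 FPKM in distal differentiation organoids, against 52.5, 52.4 and 27.9 FPKM in distal control organoids. No control library reached a differentiation library of its region, and the log2 fold changes were 1.58 ± 0.23 in proximal, 1.38 ± 0.23 in mid and 1.29 ± 0.23 in distal organoids (SE, adjusted p at most 0.000169).

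Hadha and Hadhb encode the alpha and beta subunits of the trifunctional protein and lie head to head on chromosome 5, with 85 bases between the gene ends on mm39. Hadhb had 19.1, 18.9 and 18.5 FPKM in proximal differentiation organoids, against 13.3, 9.52 and 8.35 FPKM in proximal control organoids. It had 35.4, 30.6 and 30.8 FPKM in mid differentiation organoids, against 15.3, 15.3 and 12.5 FPKM in mid control organoids, and 35.1, 36.9 and 27.8 FPKM in distal differentiation organoids, against 12.3, 16.6 and 12.2 FPKM in distal control organoids. The beta subunit was higher in every differentiation library, by 0.82 ± 0.16 in proximal, 1.11 ± 0.16 in mid and 1.22 ± 0.16 in distal organoids. Hadha changed by 0.702 ± 0.12 in proximal, 0.57 ± 0.12 in mid and 0.64 ± 0.12 in distal organoids, all 6 values passing the test (SE, adjusted p at most 0.000915 for Hadha and 0.000518 for Hadhb). After rescaling to total reads Hadha did not pass in mid (0.15, adjusted p = 0.309) or distal organoids (0.19, adjusted p = 0.174). Echs1, the short-chain enoyl-CoA hydratase, had 0.72 ± 0.20 in proximal, 0.32 ± 0.20 in mid and 0.53 ± 0.20 in distal organoids, of which the mid value did not pass (adjusted p = 0.18). The distal call was lost rescaled to total reads (0.10, adjusted p = 0.599), with no filter (0.0738), with only the groups compared (0.133) and in 4 of 6 fits that left out 1 library. These lacked distal differentiation replicate 1 (0.204) or 2 (0.0564), or distal control replicate 2 (0.119) or 3 (0.104).

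Unsaturated fatty acids need isomerases and reductases beside the main spiral. Ech1, a dienoyl-CoA isomerase, was the most abundant of these and had 99.1, 137 and 132 FPKM in proximal differentiation organoids, against 56.9, 47.6 and 46.3 FPKM in proximal control organoids. It had 117, 95.7 and 106 FPKM in mid differentiation organoids, against 57.1, 53.5 and 41.7 FPKM in mid control organoids, and 148, 129.9 and 95.5 FPKM in distal differentiation organoids, against 58.6, 66.4 and 44.7 FPKM in distal control organoids. All 9 differentiation libraries lay above the control libraries of their region, by 1.26 ± 0.19 in proximal, 1.06 ± 0.19 in mid and 1.12 ± 0.19 in distal organoids (SE, adjusted p at most 0.000172). Eci2 was higher in all 3 regions by 0.35 to 0.50, though rescaled to total reads it passed in no region and its fold change was about 0 in mid organoids. The mid call was also lost without mid differentiation replicate 1 (adjusted p = 0.0527) or mid control replicate 3 (0.0525), and the distal call with only the groups compared (0.0513). Decr1, the dienoyl-CoA reductase, was higher in proximal (0.49) and distal (0.54) but did not pass in mid organoids (0.29, adjusted p = 0.0836), and rescaled to total reads it passed in no region. Eci1, an enoyl-CoA isomerase, passed in no region, with log2 fold changes of 0.37 ± 0.15 in proximal, -0.08 ± 0.15 in mid and -0.35 ± 0.15 in distal organoids. With the replicate number as a block over all 18 libraries, which is no paired test, Eci1 was lower in distal organoids (adjusted p = 0.028). The 3 electron transfer genes, Etfa and Etfb for the flavoprotein and Etfdh for its dehydrogenase in the inner membrane, were higher in all 3 regions, by 0.47 to 0.86 (SE 0.12 to 0.21). With libraries rescaled to total reads, Etfa was near 0 in mid (0.038, adjusted p = 0.845) and distal organoids (0.037, adjusted p = 0.849), and Etfb did not pass in mid (adjusted p = 0.163) or distal organoids (0.0708). The call of Etfa was also lost without mid differentiation replicate 1 (0.0682) or mid control replicate 3 (0.08), and without distal differentiation replicate 1 (0.0555) or distal control replicate 3 (0.0598).

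**Figure D2:**
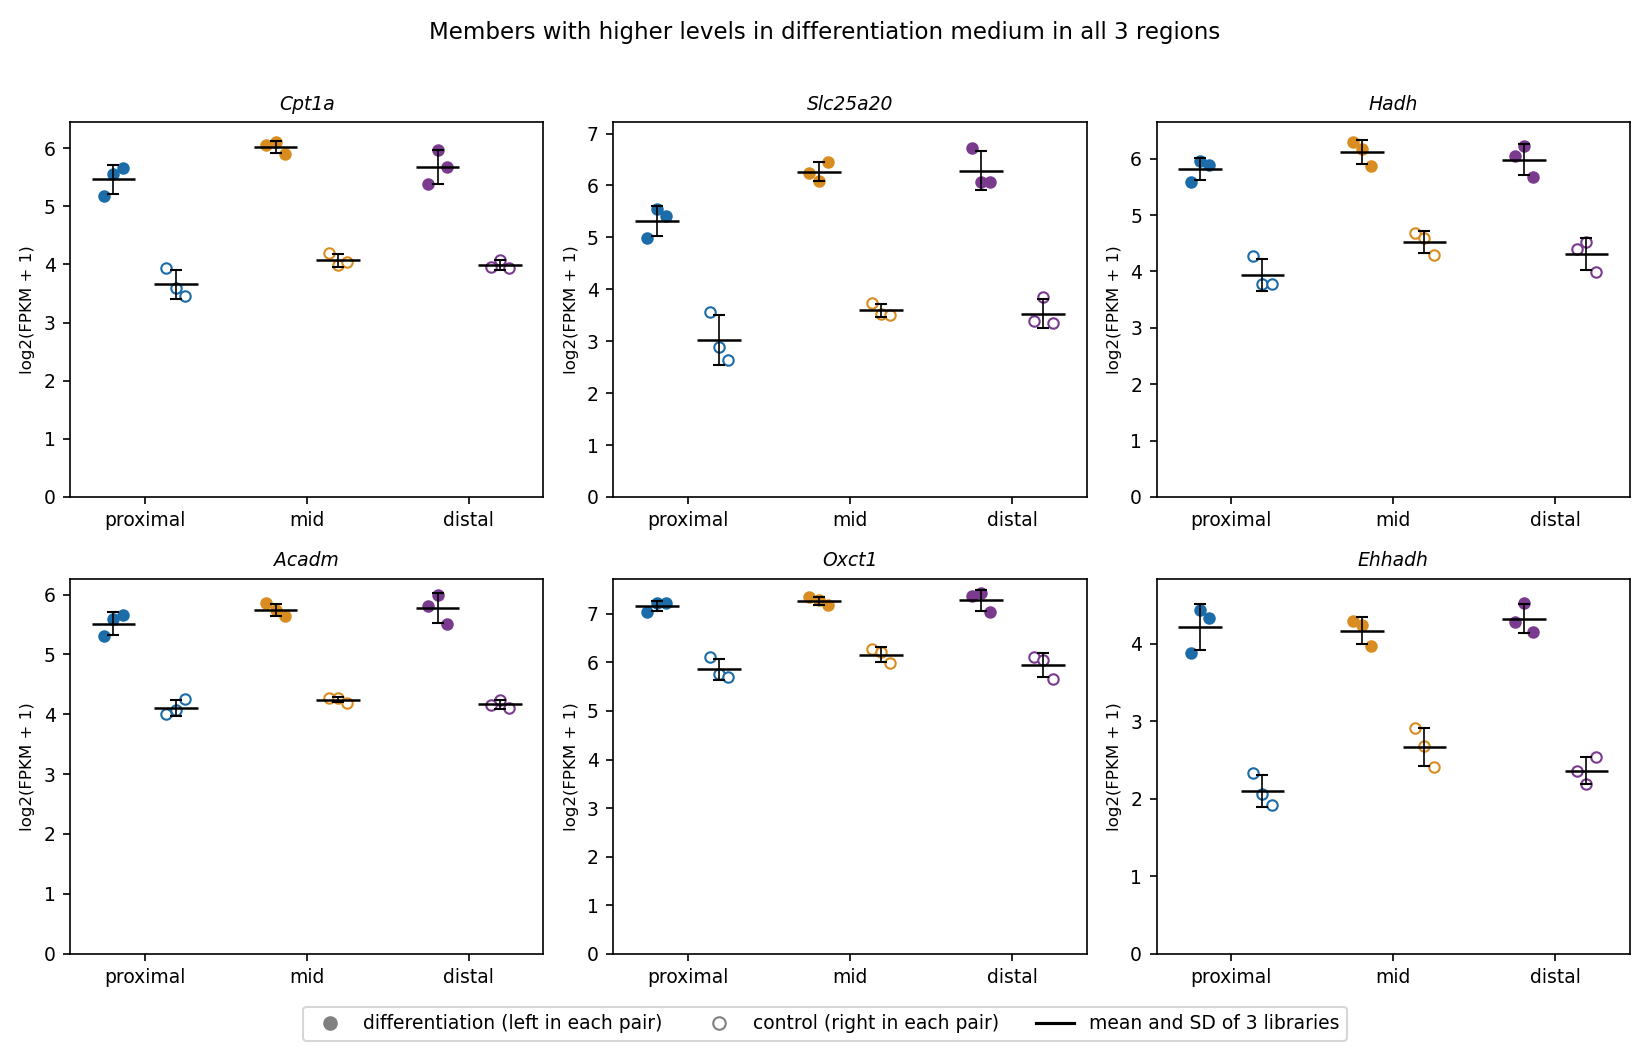
Log2(FPKM + 1) of Cpt1a, Slc25a20, Hadh, Acadm, Oxct1 and Ehhadh in each library by region, differentiation medium left (filled) and control medium right (open) in each pair, with the mean and SD of 3 libraries. Every filled point lies above the open points of its region in all 6 panels.

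All 7 peroxisomal members were higher in differentiation medium in all 3 regions. Ehhadh, the bifunctional enzyme that hydrates and oxidises enoyl-CoA, had 13.7, 20.6 and 19.1 FPKM in proximal differentiation organoids, against 4.01, 3.18 and 2.79 FPKM in proximal control organoids. Its values were 18.6, 17.8 and 14.6 FPKM in mid differentiation organoids, against 6.504, 5.399 and 4.33 FPKM in mid control organoids, and 18.4, 21.98 and 16.8 FPKM in distal differentiation organoids, against 4.13, 3.58 and 4.803 FPKM in distal control organoids. The lowest differentiation library exceeded the highest control library in each region, and the log2 fold changes were 2.11 ± 0.17 in proximal, 1.498 ± 0.17 in mid and 1.96 ± 0.17 in distal organoids (SE, adjusted p at most 3.29e-06). Pex11a, a membrane protein of peroxisome division, had 7.92, 9.31 and 9.65 FPKM in proximal differentiation organoids, against 3.8, 2.12 and 1.99 FPKM in proximal control organoids. It had 15.4, 11.4 and 12.2 FPKM in mid differentiation organoids, against 2.79, 2.38 and 1.9 FPKM in mid control organoids, and 12.98, 12.5 and 10.5 FPKM in distal differentiation organoids, against 2.51, 2.79 and 2.65 FPKM in distal control organoids. Differentiation and control libraries were again apart, by 1.48 ± 0.17 in proximal, 2.06 ± 0.17 in mid and 1.83 ± 0.17 in distal organoids (SE, adjusted p at most 5.91e-06). Decr2, the peroxisomal dienoyl-CoA reductase, had 22.01, 27.4 and 27.4 FPKM in proximal differentiation organoids, against 11.01, 10.2 and 8.96 FPKM in proximal control organoids. The remaining values were 27.02, 23.6 and 24.4 FPKM in mid differentiation organoids, against 11.6, 10.98 and 10.1 FPKM in mid control organoids, and 26.7, 24.8 and 18.98 FPKM in distal differentiation organoids, against 11.6, 10.8 and 11.4 FPKM in distal control organoids. Decr2 was higher by 1.26 ± 0.12 in proximal, 1.13 ± 0.12 in mid and 0.98 ± 0.12 in distal organoids. Crot, which makes octanoylcarnitine for export from peroxisomes, and Hsd17b4, the D-bifunctional protein, had log2 fold changes of 0.34 to 0.75. Rescaled to total reads, 5 of the 7 peroxisomal members passed in each region, since Crot (adjusted p = 0.0826 in proximal, 0.415 in mid and 0.615 in distal organoids) and Hsd17b4 (0.154, 0.633 and 0.517) did not, and the fold change of Hsd17b4 was below 0 in mid (-0.08) and distal (-0.10) organoids. The distal call of Crot was also lost with no filter (0.0737), with only the groups compared (0.143) and without distal differentiation replicate 2 (0.104) or 3 (0.186) or distal control replicate 1 (0.0761) or 2 (0.108), and its mid call without mid differentiation replicate 3 (0.0766) or mid control replicate 1 (0.0614). Hsd17b4 lost its mid call without mid differentiation replicate 2 (0.0718) or mid control replicate 1 (0.0798). Its distal call was lost with only the groups compared (0.078) and without distal differentiation replicate 2 (0.105) or distal control replicate 1 (0.0883).

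The peroxisomal thiolases Acaa1a and Acaa1b, which cleave 3-ketoacyl-CoA, stand on mouse chromosome 9, 182580 bases apart on mm39 with 3 protein-coding genes between them. Acaa1a had 29.99, 37.6 and 37.6 FPKM in proximal differentiation organoids, against 16.4, 17.9 and 17.3 FPKM in proximal control organoids. In mid and distal organoids it had 34.9, 35.3 and 29.1 FPKM in mid differentiation organoids, against 15.4, 15.2 and 15.1 FPKM in mid control organoids, and 34.3, 37.8 and 32.8 FPKM in distal differentiation organoids, against 18.1, 16.5 and 15.3 FPKM in distal control organoids. The increase of Acaa1a was of like size in the 3 regions, 0.98 ± 0.11 in proximal, 1.07 ± 0.11 in mid and 1.03 ± 0.11 in distal organoids (SE, adjusted p at most 4.12e-06). Acaa1b had 6.51, 11.7 and 8.73 FPKM in proximal differentiation organoids, against 0.688, 0.873 and 0.639 FPKM in proximal control organoids. It had 1.304, 1.69 and 1.92 FPKM in mid differentiation organoids, against 0.169, 0.0521 and 0.261 FPKM in mid control organoids, and 0.683, 0.7702 and 1.44 FPKM in distal differentiation organoids, against 0, 0.0731 and 0.114 FPKM in distal control organoids. Acaa1b was highest in the 3 proximal differentiation libraries, with 212 to 304 reads each, and near 0 in mid and distal control organoids, with 0 to 10 reads each. Its log2 fold changes were 2.49 ± 0.18 in proximal, 1.18 ± 0.18 in mid and 0.87 ± 0.18 in distal organoids (SE, adjusted p at most 0.000656). As close copies the 2 genes may share reads, which makes the level of the weaker, Acaa1b, uncertain.

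The regions upstream of both thiolases are shown because the paralogs differed in their pattern over the colon. Each is 250 bases from RefSeq on GRCm38.p6, at chr9:119341044-119341293 on the plus strand for Acaa1a and at chr9:119157094-119157343 on the minus strand for Acaa1b. Neither holds the hexamer, so that no letters are in capitals.
Acaa1a promoter: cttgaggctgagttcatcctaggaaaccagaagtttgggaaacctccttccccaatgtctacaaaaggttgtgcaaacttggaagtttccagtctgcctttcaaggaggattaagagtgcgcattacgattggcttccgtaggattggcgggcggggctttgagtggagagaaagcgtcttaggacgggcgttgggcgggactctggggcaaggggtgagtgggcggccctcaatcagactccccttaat
Acaa1b promoter: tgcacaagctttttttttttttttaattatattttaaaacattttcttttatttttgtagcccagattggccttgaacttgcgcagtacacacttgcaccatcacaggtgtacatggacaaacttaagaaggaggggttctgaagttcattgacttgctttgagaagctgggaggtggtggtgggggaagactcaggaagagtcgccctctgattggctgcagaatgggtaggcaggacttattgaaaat
Their G and C content was 53.6% upstream of Acaa1a and 41.6% upstream of Acaa1b.

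Of the 3 ketone body members only Oxct1 was higher in all 3 regions. Oxct1, the CoA transferase that commits ketone bodies to use, had 131, 148 and 149 FPKM in proximal differentiation organoids, against 67.9, 53.6 and 51.2 FPKM in proximal control organoids. It had 161, 156 and 144 FPKM in mid differentiation organoids, against 76.4, 73.4 and 62.05 FPKM in mid control organoids, and 165, 172 and 130.0 FPKM in distal differentiation organoids, against 68.6, 65.5 and 49.6 FPKM in distal control organoids. Oxct1 was the most abundant member in mid and distal differentiation organoids, and its media did not overlap. The log2 fold changes were 1.304 ± 0.15 in proximal, 1.11 ± 0.15 in mid and 1.34 ± 0.15 in distal organoids (SE, adjusted p at most 1.4e-05). Bdh1, which interconverts acetoacetate and 3-hydroxybutyrate, was higher in proximal organoids (0.41 ± 0.14 SE, adjusted p = 0.0259) and did not pass in mid (-0.05) or distal (0.18). The proximal call did not hold with proximal differentiation replicate 1 left out (adjusted p = 0.083), nor with proximal control replicate 2 (0.126) or 3 (0.0665) left out. Acat1, the mitochondrial acetoacetyl-CoA thiolase, passed in no region, with -0.37 ± 0.24 in proximal, -0.13 ± 0.24 in mid and 0.23 ± 0.24 in distal organoids. Its proximal differentiation libraries ranged from 8.11 to 18.3 FPKM, and without replicate 1, the highest of them, Acat1 was lower in differentiation medium (-0.68, adjusted p = 0.00878).

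**Figure D3:**
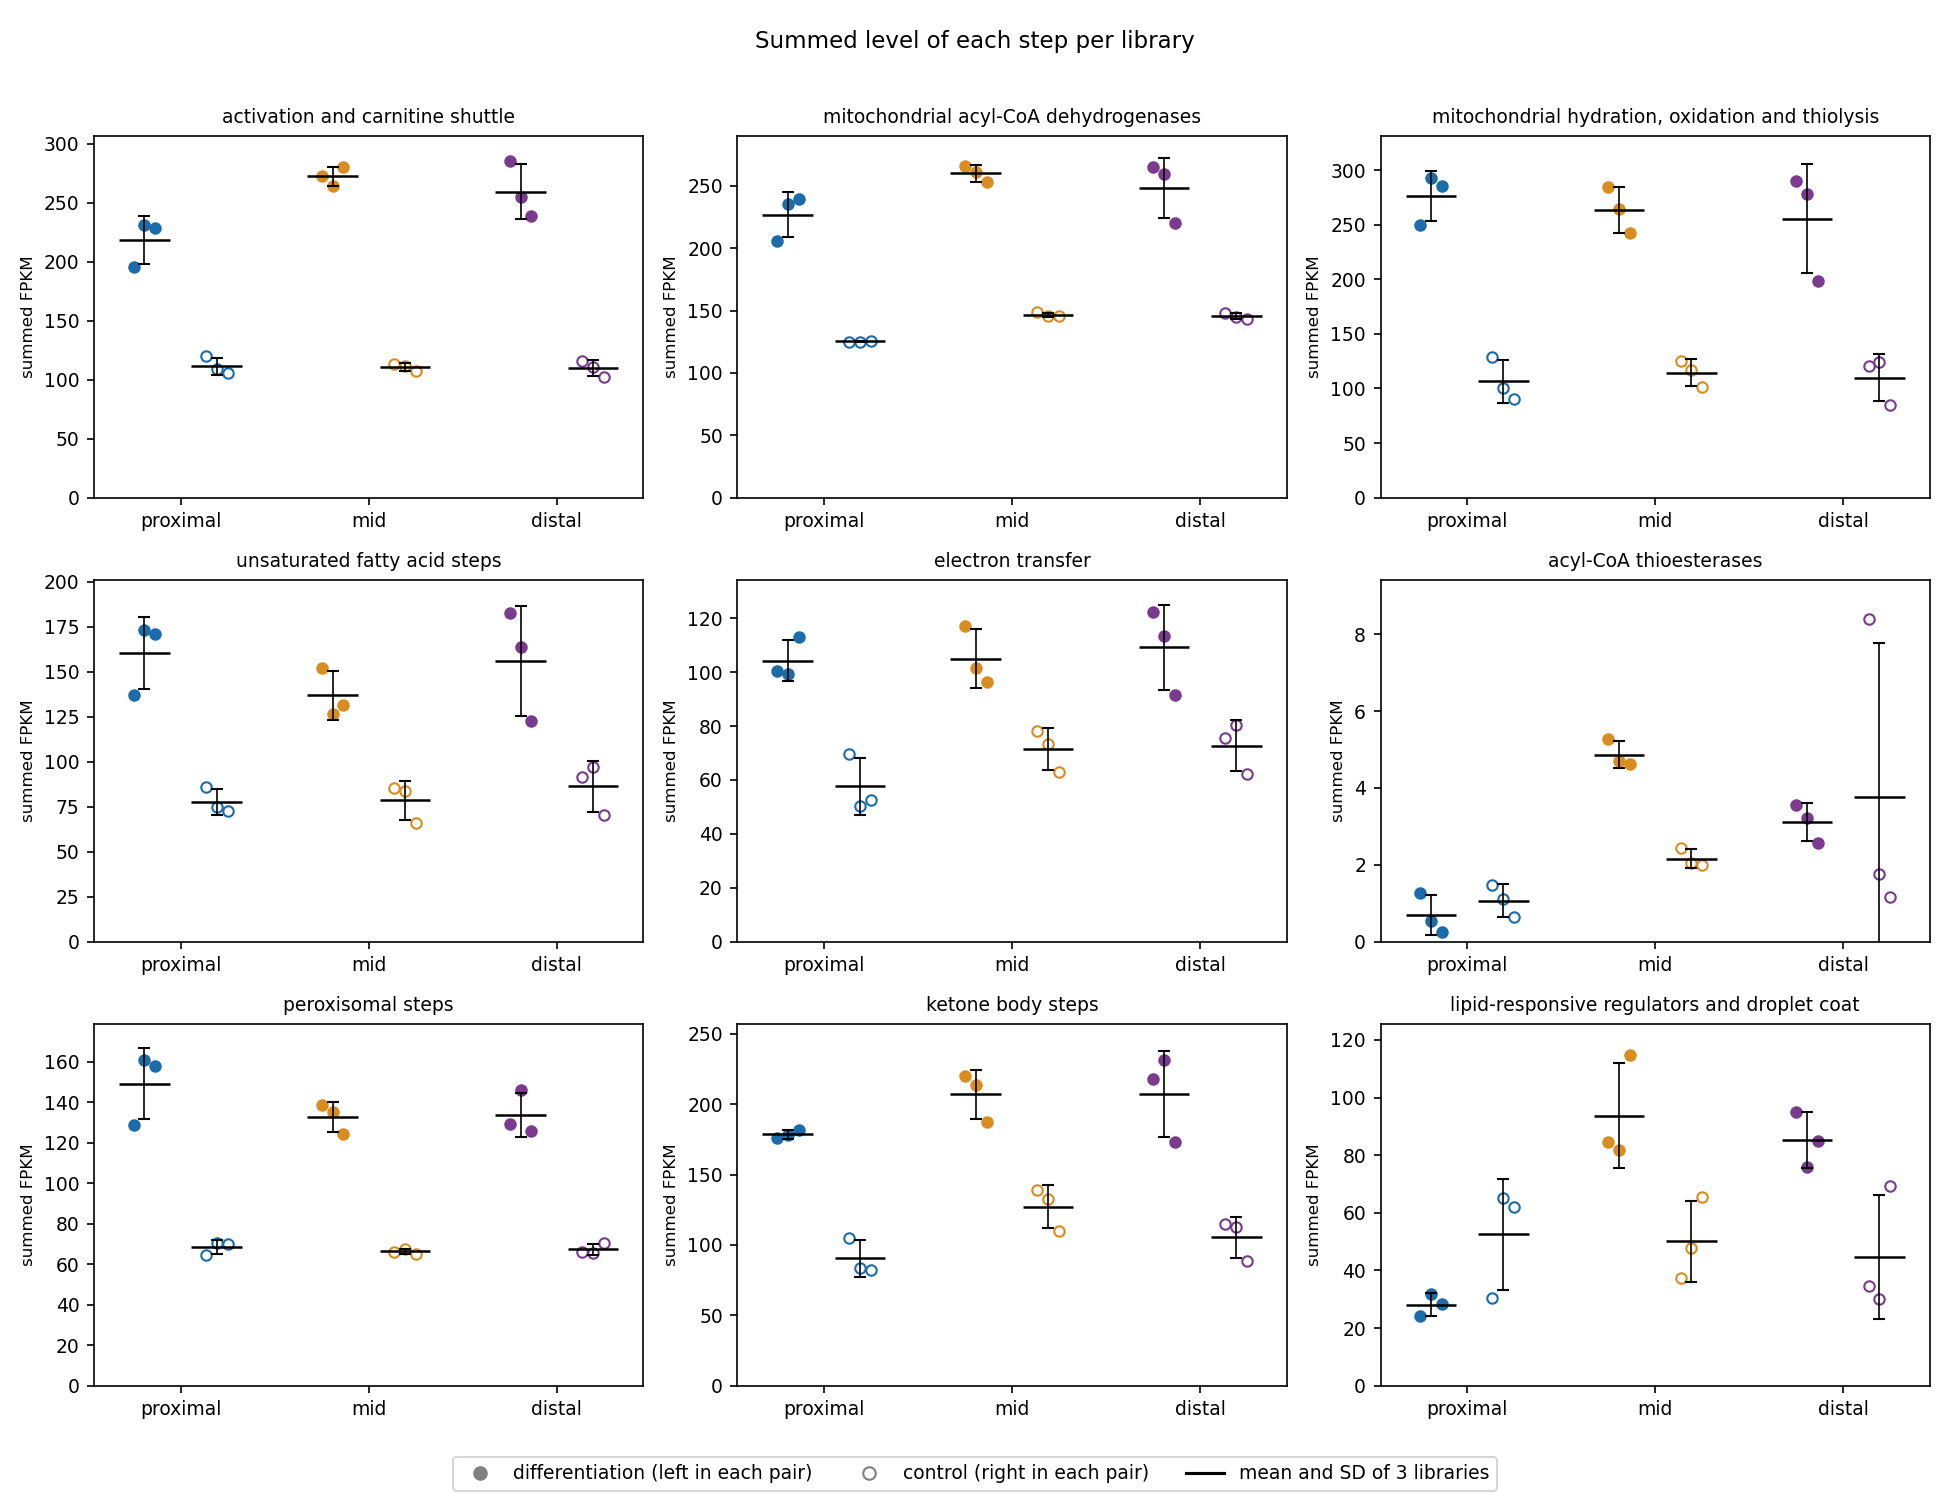
Summed FPKM of the members of each step in each library by region, differentiation medium left (filled) and control medium right (open) in each pair, with the mean and SD of 3 libraries (an SD bar that passes 0 is cut there). Differentiation libraries lie above control libraries in every region for 7 of the 9 steps, and not for the thioesterases and the lipid-responsive regulators and droplet coat. A sum follows its most abundant member, which for the ketone body steps is Oxct1, while Acat1 passed in no region and Bdh1 in proximal organoids alone.

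The acyl-CoA thioesterases, which free fatty acids from CoA, were the least abundant step. Acot1, the cytosolic enzyme, had 4, 1 and 0 reads in proximal differentiation organoids against 16, 18 and 11 reads in proximal control organoids. It had 3, 3 and 1 reads in mid differentiation against 120, 92 and 97 reads in mid control organoids, and 0, 1 and 2 reads in distal differentiation against 82, 83 and 66 reads in distal control organoids. Differentiation libraries were thus at or near 0 in all regions, while control libraries differed by region. On the log2 scale Acot1 changed by -0.24 ± 0.10 in proximal, -1.15 ± 0.10 in mid and -0.97 ± 0.10 in distal organoids, the first not passing (adjusted p = 0.0609). The proximal value passed with a pseudocount of 0.1 (adjusted p = 0.00596), which compresses low levels less. Acot2, the mitochondrial enzyme 15616 bases away on chromosome 12, had 1.21, 0.509 and 0.257 FPKM in proximal differentiation organoids, against 1.201, 0.906 and 0.463 FPKM in proximal control organoids. It had 5.23, 4.65 and 4.61 FPKM in mid differentiation organoids, against 0.993, 0.838 and 0.723 FPKM in mid control organoids, and 3.56, 3.19 and 2.54 FPKM in distal differentiation organoids, against 7.36, 0.74 and 0.229 FPKM in distal control organoids. Acot2 was higher in mid organoids (1.66 ± 0.47 SE, adjusted p = 0.00661). In distal organoids 1 control library, replicate 1, stood at 7.36 FPKM, above all differentiation libraries. Without it the distal log2 fold change was 1.48 (adjusted p = 0.000113), against 0.64 ± 0.47 (SE, adjusted p = 0.251) with it. The level of 0.229 FPKM in distal control replicate 3 rested on 9 reads. Acot1 and Acot2 are near-identical copies that may share reads, so both levels are uncertain.

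The remaining members are lipid-responsive. Plin2 coats lipid droplets and is a known PPAR target. Plin2 had 21.3, 26.8 and 25.9 FPKM in proximal differentiation organoids, against 29.7, 63.2 and 60.05 FPKM in proximal control organoids. It had 83.6, 80.7 and 114 FPKM in mid differentiation organoids, against 36.9, 46.8 and 64.1 FPKM in mid control organoids, and 93.7, 75.6 and 84.3 FPKM in distal differentiation organoids, against 33.9, 29.8 and 68.1 FPKM in distal control organoids. All 3 differentiation libraries lay below the control libraries in proximal organoids and above them in mid and distal organoids. The log2 fold changes were -0.95 ± 0.31 (SE, adjusted p = 0.0167) in proximal, 0.92 ± 0.31 (SE, adjusted p = 0.0167) in mid and 1.02 ± 0.31 (SE, adjusted p = 0.00929) in distal organoids. The proximal call did not hold once proximal control replicate 2 (adjusted p = 0.0781) or 3 (0.0694) was left out, the mid call without mid differentiation replicate 3 (0.0712) or mid control replicate 1 (0.0767), and the distal call without distal control replicate 2 (0.0508). Rescaled to total reads, the mid (0.49, adjusted p = 0.151) and distal (0.57, adjusted p = 0.095) values did not pass. Angptl4, a secreted inhibitor of lipoprotein lipase, had 2.62, 4.89 and 2.55 FPKM in proximal differentiation organoids, against 0.618, 1.93 and 1.87 FPKM in proximal control organoids. It had 0.908, 1.15 and 1.18 FPKM in mid differentiation organoids, against 0.589, 0.894 and 1.24 FPKM in mid control organoids, and 1.34, 0.273 and 0.613 FPKM in distal differentiation organoids, against 0.5702, 0.162 and 1.26 FPKM in distal control organoids. Angptl4 passed in proximal organoids (not in mid or distal, while the difference between regions did not pass either), with 0.82 ± 0.29 (SE, adjusted p = 0.0279), and that call was lost without proximal differentiation replicate 2 (adjusted p = 0.142) or proximal control replicate 1 (0.144), with a pseudocount of 0.1 (0.0927), with no filter (0.0673), rescaled to total reads (0.075) and with only the groups compared (0.0742).

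The region upstream of Plin2 is shown because this member turned its direction between regions and carries the hexamer, whose share among the members lay near that among all promoters. It spans chr4:86670060-86670309 on GRCm38.p6, minus strand, from RefSeq, with the hexamer in capitals from base -218 to base -213.
Plin2 promoter: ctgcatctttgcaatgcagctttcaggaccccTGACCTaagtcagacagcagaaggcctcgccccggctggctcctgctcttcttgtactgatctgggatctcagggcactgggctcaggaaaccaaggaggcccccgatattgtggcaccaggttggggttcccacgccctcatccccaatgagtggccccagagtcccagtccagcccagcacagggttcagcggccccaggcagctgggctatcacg

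Whether the medium response itself differed between regions was tested with an interaction term. By a moderated F test over the 3 regions 5 members differed, Acsl5, Slc22a5, Acot1, Acaa1b and Plin2, while 9.59% of all tested genes did. For distal minus proximal organoids 1 member had a higher and 3 a lower response, against 4.16% and 4.09% of all tested genes. For mid minus proximal organoids 2 had a higher and 2 a lower response, against 5.62% and 6.37%. The members' counts thus lay near the shares among all genes. No member passed for distal minus mid (limma, 0 of 38 also at an unadjusted p under 0.05), where 0.031% of all genes passed, and the differences ran from -1.02 to 0.46 on the log2 scale.

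Plin2 had the largest difference in response. Its log2 fold change was greater in distal than in proximal organoids by 1.97 ± 0.43 (SE, adjusted p = 0.0117) and greater in mid than in proximal organoids by 1.87 ± 0.43 (SE, adjusted p = 0.0121). On the scale of FPKM + 1, the response of Acaa1b was smaller in distal (-1.63 ± 0.25 SE, adjusted p = 0.000969) and in mid organoids (-1.31 ± 0.25 SE, adjusted p = 0.00421). That scale compresses its levels in mid and distal control organoids, which were at most 0.261 FPKM. With a pseudocount of 0.1 in place of 1, neither difference of Acaa1b passed (-0.70, adjusted p = 0.488, and -0.61, adjusted p = 0.52). Relative to the control level, a smaller response of Acaa1b was thus not shown. Slc22a5 responded more in mid than in proximal organoids (1.02 ± 0.20 SE, adjusted p = 0.00501), with lower control and higher differentiation levels in mid organoids. Its distal minus proximal difference was 0.68 ± 0.20 (SE, adjusted p = 0.0519). The response of Acsl5 was more negative in distal organoids (-0.66 ± 0.17 SE, adjusted p = 0.027), a call lost without any one of 4 libraries (adjusted p 0.056 to 0.0621), which were proximal control replicates 2 and 3, distal differentiation replicate 2 and distal control replicate 1. The response of Acot1 was more negative in distal (-0.73 ± 0.15 SE, adjusted p = 0.00578) and mid organoids (-0.91 ± 0.15 SE, adjusted p = 0.00115), whose control levels were the higher ones.

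**Figure D4:**
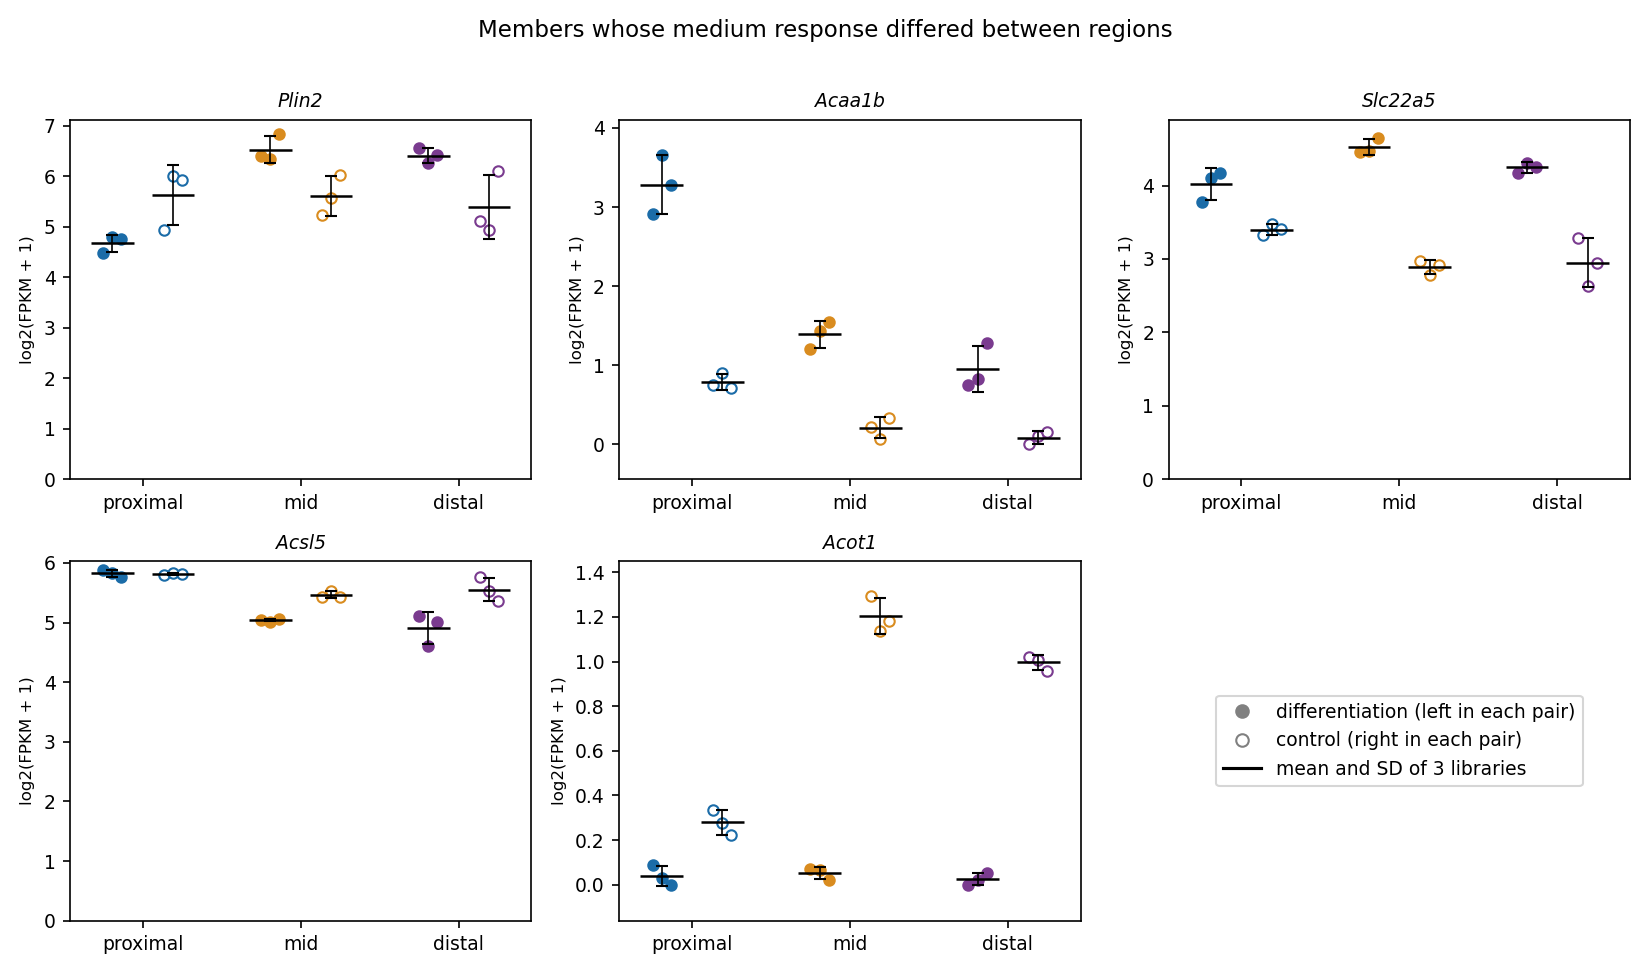
Log2(FPKM + 1) in each library of the 5 members whose medium response differed between regions on this scale, differentiation medium left (filled) and control medium right (open) in each pair, with the mean and SD of 3 libraries. Plin2 lies lower in differentiation than in control medium in proximal organoids and higher in mid and distal organoids.

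Regions were then compared within a medium. In differentiation medium 9 members were higher and 6 lower in distal than in proximal organoids, against 15.6% and 14.3% of all tested genes. In control medium 3 were higher and 1 lower, against 5.57% and 4.98%. In differentiation medium Plin2 was higher in distal organoids, by 1.74 ± 0.31 (SE, adjusted p = 0.000535), and its distal libraries of 75.6 to 93.7 FPKM did not overlap the proximal ones of 21.3 to 26.8 FPKM. Slc25a20 (0.97 ± 0.24 SE, adjusted p = 0.00559), Hadhb (0.78 ± 0.16 SE, adjusted p = 0.00156) and Acat1 (0.86 ± 0.24 SE, adjusted p = 0.0122) were also higher in distal differentiation organoids. Acot2 was higher by 1.34 ± 0.47 (SE, adjusted p = 0.0441), a call lost in 5 of the 6 fits that each left out 1 library (adjusted p 0.059 to 0.134), the exception being the fit without proximal differentiation replicate 1. The call of Acat1 was lost without proximal differentiation replicate 2 (0.0646) or distal differentiation replicate 2 (0.0668), rescaled to total reads (0.0578) and with only the groups compared (0.109). A fit of these 2 groups alone called 4 members higher in place of 9. The members lower in distal differentiation organoids included Acaa1b (-2.33 ± 0.18 SE, adjusted p = 1.24e-07), Angptl4 (-1.33 ± 0.29 SE, adjusted p = 0.00308), Acsl5 (-0.92 ± 0.12 SE, adjusted p = 3.35e-05) and Eci1 (-0.52 ± 0.15 SE, adjusted p = 0.0183). The call of Eci1 was lost without proximal differentiation replicate 1 (adjusted p = 0.0606) or 3 (0.0503) or distal differentiation replicate 3 (0.0684), and with only the groups compared (0.0593).

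In control medium Acadl (0.44 ± 0.10 SE, adjusted p = 0.0079), Bdh1 (0.54 ± 0.14 SE, adjusted p = 0.0252) and Acot1 (0.72 ± 0.10 SE, adjusted p = 0.000205) were higher and Acaa1b (-0.71 ± 0.18 SE, adjusted p = 0.0188) was lower in distal than in proximal organoids. Without proximal control replicate 1 the higher members numbered 9, and without proximal control replicate 2 or distal control replicate 2 none was lower. Bdh1 no longer passed without proximal control replicate 2 (adjusted p = 0.142) or 3 (0.0894) or distal control replicate 1 (0.0808) or 2 (0.0919), and with only the groups compared (0.0909). Nor did Acaa1b pass without proximal control replicate 2 (0.0852) or distal control replicate 1 (0.0657) or 2 (0.0522), and with a filter at FPKM 5 (0.0505). Mid organoids were set against proximal ones in the same way. In differentiation medium 11 members were higher and 6 lower in mid organoids (15.6% and 13.7% of all tested genes), and without proximal differentiation replicate 1 the higher ones numbered 7, as they did rescaled to total reads. The lower ones numbered 3 without proximal differentiation replicate 2 or 3 or mid differentiation replicate 2 or 3. In control medium 6 were higher and 2 lower (7.99% and 5.28%), counts that ran from 2 to 12 and from 0 to 1 when 1 library of the 2 groups was left out. The library whose absence gave 12 was proximal control replicate 1. Between distal and mid organoids no member passed in either medium (limma). In control medium 0.326% of all genes passed and the members' differences ran from -0.45 to 0.50, with 0 members at an unadjusted p under 0.05. In differentiation medium 0.69% of all genes passed and the differences ran from -0.51 to 0.21, with 3 members at an unadjusted p under 0.05.

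**Figure D5:**
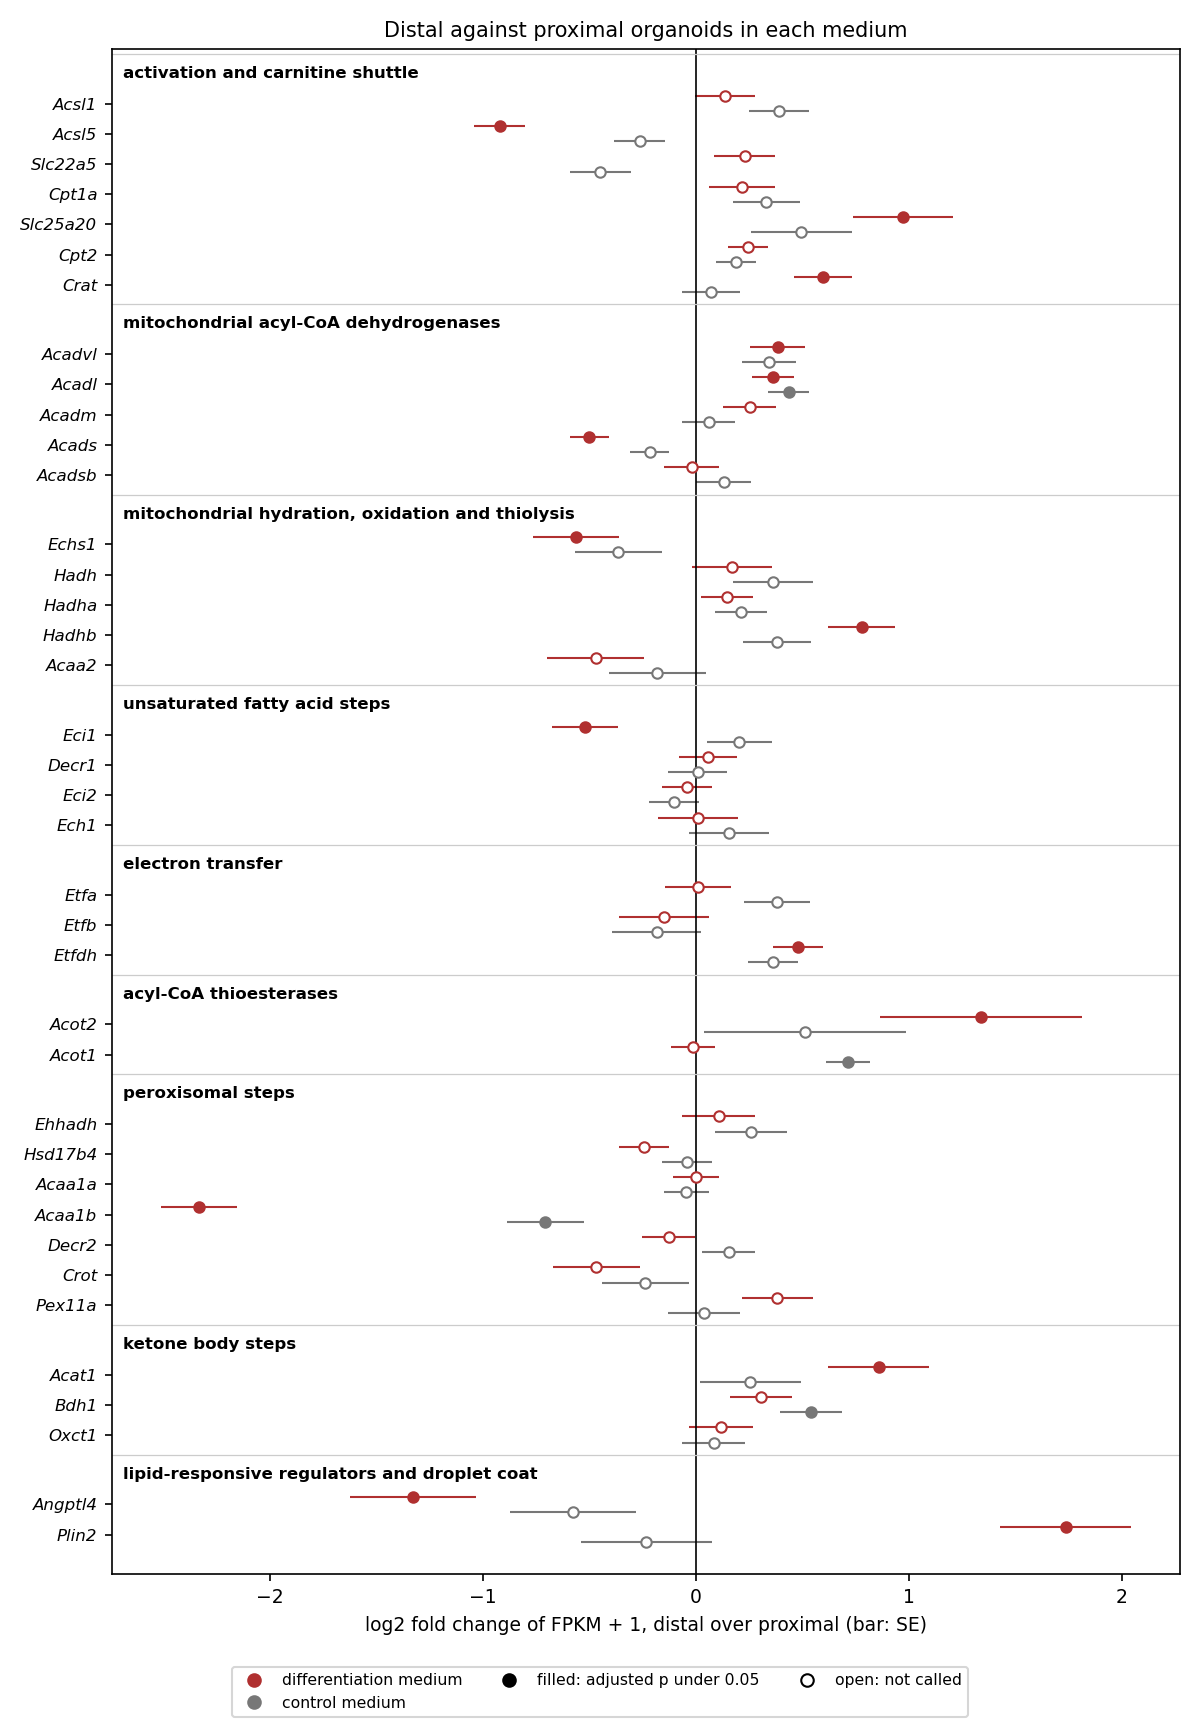
Log2 fold change of FPKM + 1, distal over proximal organoids, of the 38 tested members by step (rows) in differentiation medium (red) and control medium (grey), 3 libraries per group, with SE bars. Filled points passed an adjusted p of 0.05, 15 of them in differentiation and 4 in control medium.

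Genes of the same pathways outside the 39 were read from lists chosen with earlier results known. Their counts stand beside shares among all tested genes of 27.6% higher and 26.2% lower for proximal, 31.5% and 32.0% for mid and 31.6% and 31.3% for distal organoids, and several lie near these shares. Of 31 tested further genes of peroxisomal oxidation and biogenesis, differentiation medium gave 16 higher and 2 lower in proximal, 20 higher and 2 lower in mid, and 19 higher and 2 lower in distal organoids. Phyh, which starts the breakdown of phytanic acid, had log2 fold changes of 2.75 ± 0.33 in proximal, 2.86 ± 0.33 in mid and 3.20 ± 0.33 in distal organoids (SE). Of 14 tested further mitochondrial genes 7, 6 and 7 were higher and 3, 3 and 4 lower in proximal, mid and distal organoids, led by Acad11, an acyl-CoA dehydrogenase, with 1.83 ± 0.17, 2.56 ± 0.17 and 2.22 ± 0.17.

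Other ketone body genes were mixed, with 7 tested, of which proximal organoids had 4 higher and 1 lower, mid organoids 2 and 3, and distal organoids 2 and 5. Slc16a1, a carrier of ketone bodies, lactate and butyrate, averaged 91.0 FPKM in proximal differentiation and 35.9 FPKM in proximal control organoids, 210.6 FPKM in mid differentiation and 55.1 FPKM in mid control organoids, and 227.4 FPKM in distal differentiation and 55.8 FPKM in distal control organoids. Among 20 tested transcriptional regulators 13, 12 and 12 were higher and 2, 6 and 4 lower. Hnf4a, a nuclear receptor of the gut epithelium, was higher by 1.89 ± 0.20 in proximal and 1.81 ± 0.20 in distal organoids. In mid organoids Hnf4a averaged 356.3 FPKM in differentiation and 127.1 FPKM in control medium. Of 12 tested fatty acid synthesis genes 5, 2 and 1 were higher and 0, 5 and 5 lower. Fasn, the fatty acid synthase, changed by -1.29 ± 0.18 in mid and -1.45 ± 0.18 in distal organoids. In proximal organoids, where none of these genes was called lower, Fasn averaged 44.1 FPKM in differentiation and 52.8 FPKM in control medium. Of 4 tested further PPAR targets 3, 2 and 2 were higher and none lower, while the other 8 of 12 did not pass the filter. Of 11 tested genes of triglyceride turnover and droplets 6, 8 and 8 were higher and 1, 1 and 2 lower. Of 9 tested genes of uptake, binding and activation 6, 3 and 3 were higher and 1, 3 and 2 lower, and Fabp2, an intestinal fatty acid binding protein, averaged 173.3 FPKM in proximal differentiation and 23.4 FPKM in proximal control organoids, 70.5 FPKM in mid differentiation and 4.01 FPKM in mid control organoids, and 12.7 FPKM in distal differentiation and 1.31 FPKM in distal control organoids.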

How the data were processed

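Poly-A RNA of 18 mouse colon organoid libraries was sequenced. The authors deposited 1 FPKM value per gene and library, with gene lengths and positions beside it, per the file headers. HISAT2 2.0.5, featureCounts 1.5.0-p3 and the mm39 build are named in the submitters' processing notes. Which annotation release was used is not stated there. The labels do not say whether libraries kept the strand, so reads of a gene and an antisense or overlapping partner cannot be told apart. FPKM times gene length fell on whole multiples of 1 step in every library (tolerance 0.001 of a read), which gave the reads and depth. The library sizes behind the deposited FPKM equal those of median-ratio scaling and not the total reads. The table's 6 columns of group means were not used, and 0 value columns were unmapped.

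Groups were taken from the sample titles. Log2(FPKM + 1) of 12896 genes with 3 or more libraries at FPKM 1 or higher was fitted with a mean per group over all 18 libraries in limma 3.58.1 (R 4.3.3, trend, 12 residual degrees of freedom, two-sided). Benjamini-Hochberg adjustment ran over all tested genes in each comparison, at 0.05. The fit was run on simulated data with a fixed spread, in which a small set of well-covered genes changed. That run did not cover members with few reads or libraries that deviate from their group. The members and gene lists were chosen with earlier results of these data known. Library values are given for members called in a medium comparison or between distal and proximal with a log2 fold change of at least 1 in size, or whose response differed between regions. At most 3 genes of another list are named per comparison, by size among those called, and a gene so named in 1 region may be given in the others. The alternatives were another pseudocount, 2 other filters, rescaling to total reads and a replicate block. Others were a fit of only the groups compared and each library left out. Median-ratio scaling was also run, but it repeats the scaling of the deposited values. The replicate block gave each number an effect shared by all 6 groups, so it was no paired test of 2 groups. Replicate numbers were taken to pair libraries where every same-numbered correlation of deviations exceeded 0.1. This held for the medium comparison in distal organoids (0.118 to 0.223) and for distal against mid in control medium (0.149 to 0.542). In the latter, distal control replicate 2 correlated more with mid control replicate 1 (0.356) than with mid control replicate 2 (0.149). The labels do not say what a replicate number marks. Promoter windows are RefSeq's on GRCm38.p6. They were searched for the AGGTCA hexamer, for a pair of it with 1 base between, and for TCAAGGTCA. The search for the hexamer on its own came after the data were seen. No promoter of Decr1, Angptl4, Crat, Acaa2, Hsd17b4 or Acat1 is described. A few genes of the further lists are not reported here by name.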

Additional observations from a re-analysis of the deposited data

Results flagged for a closer look

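The difference in medium response between regions passed its interaction term in limma (adjusted p under 0.05 over all tested genes) for 5 members. Plin2 responded more in distal than in proximal organoids by 1.97 on the log2 scale and more in mid than in proximal organoids by 1.87. Acaa1b differed by -1.63 for distal minus proximal and by -1.31 for mid minus proximal. Neither difference of Acaa1b passed with a pseudocount of 0.1 in place of 1. Acot1 differed by -0.73 for distal minus proximal and by -0.91 for mid minus proximal. Acsl5 differed by -0.657 for distal minus proximal. Slc22a5 differed by 1.02 for mid minus proximal. The proximal groups are shared by both kinds of difference, so they are not independent of each other.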

How the results depend on the processing

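Counts of members are given as higher or lower in the first-named group, with the count of the fit described above in brackets. Rescaled to total reads, the differentiation against control comparison called 4 lower in proximal (1), 5 lower in mid (2), and 18 higher (30) and 4 lower (2) in distal organoids. Under the same scaling distal against proximal called 2 lower in control medium (1), and mid against proximal called 7 higher in differentiation medium (11). Of the members' values in the 3 medium comparisons 12 changed sign. One of them passed after rescaling, Acsl5 in proximal organoids (-0.31), and 3 had passed before it, Eci2 in mid (-0.00045) and Hsd17b4 in mid (-0.077) and distal organoids (-0.10). A pseudocount of 0.1 gave 2 lower in the proximal medium comparison (1), 1 lower for the response of mid minus proximal (2) and 3 by the F test (5). No filter gave 2 lower in the proximal medium comparison (1) and 1 lower for mid against proximal in control medium (2). A filter at FPKM 5, which tested 33 members, gave 1 lower in the mid medium comparison (2), 0 lower for distal (1) and 1 lower for mid (2) against proximal in control medium, 2 higher for the response of distal minus proximal (1) and 1 lower for that of mid minus proximal (2). A fit of only the groups compared gave 2 lower in the proximal medium comparison (1) and 4 higher for distal against proximal in differentiation medium (9). Median-ratio scaling could not change the counts, since the library sizes behind the deposited values equal its own. With the exception of the rescaling and the settings above, the cause of which was not tested, counts stayed within 1.5 times.

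Leaving out 1 library at a time gave 30 to 31 higher and 0 to 2 lower in the proximal, 25 to 28 and 2 in the mid, and 26 to 28 and 2 to 3 in the distal medium comparison. For distal against proximal the ranges were 6 to 10 higher and 4 to 6 lower in differentiation and 2 to 9 and 0 to 1 in control medium. For mid against proximal they were 7 to 9 and 3 to 5 in differentiation and 2 to 12 and 0 to 1 in control medium. For the response they were 1 to 3 higher and 2 to 4 lower for distal minus proximal, 2 and 2 to 4 for mid minus proximal, and 4 to 5 by the F test. The 2 additional lower calls of mid minus proximal came without proximal differentiation replicate 1. The 2 higher calls of distal minus proximal came without that library or without distal differentiation replicate 3, and the 3 without distal control replicate 1. In all 6 such fits 29 members stayed higher in proximal, 23 in mid and 24 in distal organoids. With a replicate block the medium comparison called 32 higher and 1 lower for proximal organoids, 29 higher and 2 lower for mid, and 29 higher and 3 lower for distal ones, and mid against proximal called 9 higher in control medium (6). In the 2 comparisons whose numbers were taken to pair, the block changed no call other than those of Acsl1 and Eci1 in distal organoids. In the proximal and mid medium comparisons same-numbered libraries correlated at 0.034 to 0.170 and 0.043 to 0.259, so there the numbers are not taken to pair. Depth limits Acot1, Acot2, Acaa1b and Pdk4, each of which had under 10 reads in at least 1 library.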
